A study of Mus musculus with 6 samples.

Results

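Natural killer (NK) cells and cytotoxic T cells were read in these libraries through 10 genes, Ncr1, Klrb1c, Klre1, Klrd1, Gzma, Gzmb, Prf1, Nkg7, Eomes and Tbx21, taken by symbol from the 47729 genes counted. All 10 were found. RNA was sequenced from mouse lung endothelial cells (ECs) in 3 wild-type (WT) and 3 leene-KO libraries. Leene is the mouse homolog of the human long noncoding RNA LEENE. The KO mice lack the leene region of chromosome 14 in every cell, by a CRISPR deletion on the C57BL6 background, and the WT mice were their littermates. Both groups were male, 14 weeks old and on normal chow, and both received angiotensin II (AngII) at 1000 ng/kg/min from an osmotic pump for 2 weeks, so that no library stands for mice without AngII. The labels name CD31-enriched cells and a pool of 3 mice in each group, whereas the methods name a magnetic sort for CD144. Whether each library was made from 1 mouse or from pooled mice is thus unsettled, and p-values measure the spread between libraries.

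NK cells are innate lymphocytes that kill infected or transformed cells without prior sensitization, and the capillary bed of the lung holds many of them. Their surface receptors weigh activating against inhibitory signals. A cell that is triggered releases granules in which perforin opens the target membrane and granzymes, which are serine proteases, start cell death. The T-box factors Eomes and T-bet (Tbx21) direct this program, and cytotoxic T cells use much of the same machinery, so most of these genes do not tell the 2 kinds of cell apart.

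Total counts lay between 24464324 and 35184063 a library. Mitochondrial genes took 37.4% to 54.5% of the counts, with the highest share in WT replicate 3, and WT replicates 1 and 3 lay at the opposite end of the first principal component (42.6% of the variance) from the other 4 libraries. The EC marker Pecam1 stood at 445 ± 135 CPM (counts scaled to a common library size) in WT against 464 ± 92.9 in KO (SD, n = 3 libraries each). The libraries also held Sftpc of alveolar type II cells, with 11200 ± 11400 CPM in the WT group and 21200 ± 2320 in the KO group. The leene genes are not in the counted annotation and were not analysed here.

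The NK genes had very few counts in the EC preparations of both genotypes. Of the 2 that passed the filter on low counts, 0 were called different between KO and WT by edgeR. Over all 14625 genes tested, 0.0342% were called higher in KO and 0.0752% lower. The 10 genes together received 68, 83 and 45 counts in WT against 97, 48 and 108 in KO. That is 1 count in 259000 to 608000 of all counts. Of the 60 values (10 genes in 6 libraries), 12 were 0 and 15 reached 10 counts. Gzma alone made up 34.7% of the 449 counts, and Gzma with Klrd1 54.1%. Scaled to library size by the TMM method, the summed level was 1.66, 2.44 and 2.11 CPM in WT and 4.17, 1.77 and 3.73 CPM in KO, so that KO replicates 1 and 3 stood above every WT library. The place of KO replicate 2 depended on the scaling. By TMM it lay among the WT libraries, and scaled in the same unit to the counts on nuclear genes alone (3.65, 3.83 and 4.04 in WT against 6.89, 2.76 and 6.24 in KO) it was the lowest library.

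**Figure D1:**
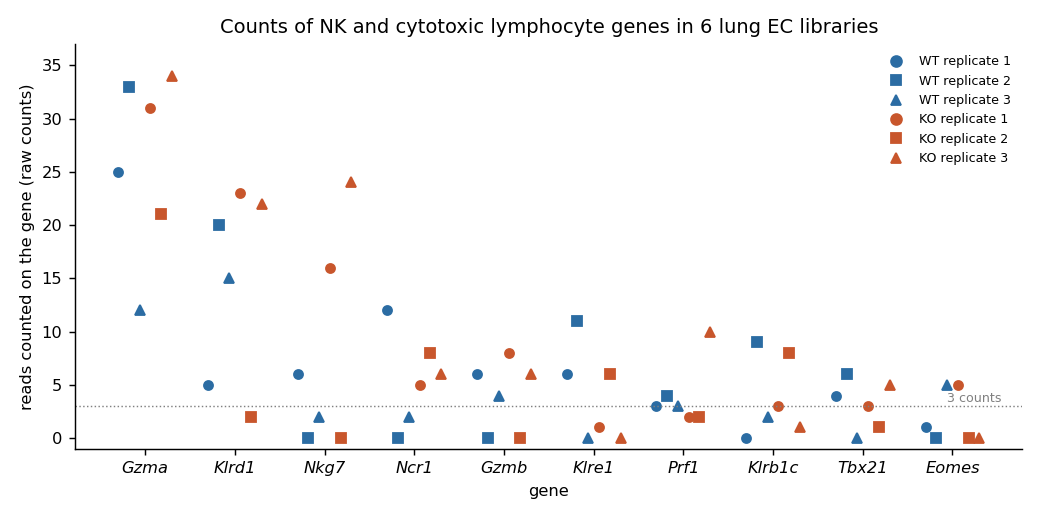
Raw counts of the 10 NK and cytotoxic lymphocyte genes (y axis, reads counted on the gene) in each of the 3 WT (blue) and 3 KO (orange) libraries, with the marker shape giving the replicate number and the dotted line at 3 counts. Gzma reaches 34 counts at most, and the points of WT and KO overlap in all 10 genes.

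Among the 26138 genes with a count in any library, Gzma ranked 13069th by mean CPM and Eomes 17673rd, and the other 8 lay between them. Per kilobase of exon, which allows levels to be compared between genes, Gzma led with a mean of 1.03 ± 0.351 CPM per kb (SD over all 6 libraries). Klrd1 followed with 0.421 ± 0.286, Nkg7 with 0.32 ± 0.402, Ncr1 with 0.119 ± 0.0756 and Gzmb with 0.104 ± 0.0931 CPM per kb. Prf1, Klrb1c, Tbx21, Klre1 and Eomes had means between 0.019 and 0.0678 CPM per kb. Gzma was above Klrd1 in 6 of 6 libraries. Each later neighbour in this order was the higher one in only 2 to 4 of the 6 libraries, so that below Gzma no neighbours differed beyond their spread.

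**Figure D2:**
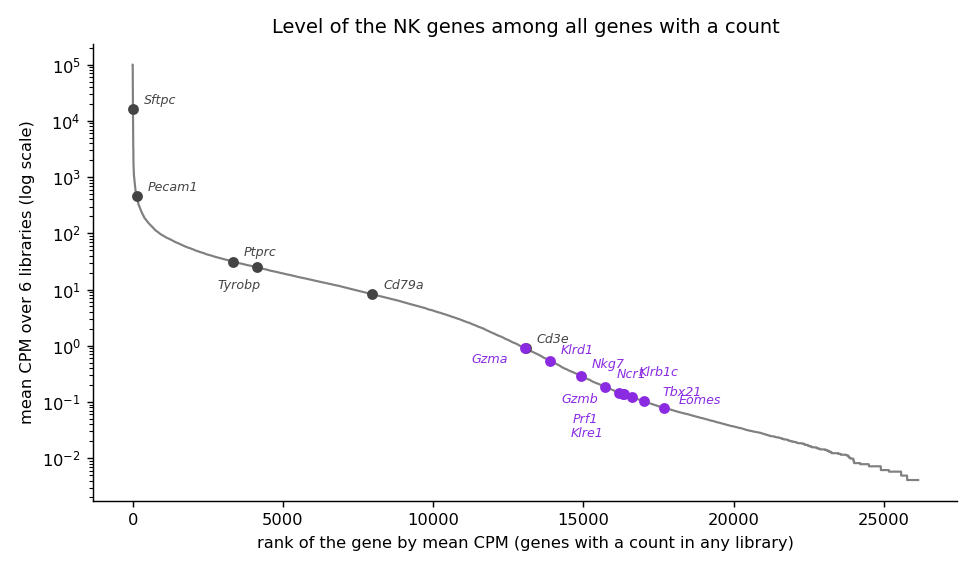
Mean CPM over 6 libraries (y axis, log scale) against the rank of the gene among the genes with a count (x axis). The 10 NK genes (purple) lie between ranks 13069 and 17673, with Cd3e of T cells beside Gzma and with the markers Sftpc, Pecam1, Ptprc, Tyrobp and Cd79a (grey) at higher levels.

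The receptor genes mark NK cells most directly. Ncr1 encodes NKp46, an activating receptor close to specific for NK cells and related innate lymphoid cells, and lies on chr7:4337724-4345164 (GRCm38, plus strand). It had 12, 0 and 2 counts in WT against 5, 8 and 6 in KO. In CPM it ran from 0 to 0.294 in WT and from 0.207 to 0.294 in KO, so the groups overlapped. A library with 0 counts can hold up to 3 by counting error alone, which is 0.0734 to 0.14 CPM in these libraries.

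Klrd1 encodes CD94, which pairs with NKG2 proteins into receptors for the nonclassical MHC molecule Qa-1, and lies on chr6:129591782-129598775 (plus strand). Its counts were 5, 20 and 15 in WT against 23, 2 and 22 in KO. The low libraries were WT replicate 1 and KO replicate 2, and the groups overlapped. Klre1, beside it on chr6:129577905-129585827, encodes a lectin-like receptor that pairs with Klri1 or Klri2. It had 6, 11 and 0 counts in WT against 1, 6 and 0 in KO.

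Klrb1c encodes NK1.1, the antigen by which NK cells are stained in C57BL/6 mice, and lies on the minus strand at chr6:128778485-128789215. It had 0, 9 and 2 counts in WT against 3, 8 and 1 in KO, with the replicate 2 library the highest of each genotype. Its count leaves out part of the gene, because reads on exons of more than 1 gene were not assigned. The predicted gene Gm44511, on the same strand, holds 413 of the 2961 exon bases of Klrb1c (13.9%) and 599 of the 2228 of its neighbour Klrb1b (26.9%), and it had 0 counts itself in every library. The exons of the other 9 genes overlapped no counted gene on their strand. Klrb1c also resembles Klrb1a and Klrb1b, with 107 and 74 of its 3003 possible 50-base reads found in their transcripts. In all, 510 of the 3003 (17.0%) were found in transcripts of 4 other genes, and Gm44511 alone held 371. The coding stretch below lies in an exon that Klrb1c shares with Gm44511. Among 90-base windows within 1 coding exon, it had the fewest differences from both relatives together. The bases that differ among the 3 are in capitals (GRCm38, minus strand, 5′ to 3′).
Klrb1c, chr6:128783690-128783779: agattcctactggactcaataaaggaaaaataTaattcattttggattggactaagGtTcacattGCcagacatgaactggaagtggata
Klrb1b, chr6:128818499-128818588: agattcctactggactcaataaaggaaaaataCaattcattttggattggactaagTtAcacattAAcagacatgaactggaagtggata
Klrb1a, chr6:128618080-128618169: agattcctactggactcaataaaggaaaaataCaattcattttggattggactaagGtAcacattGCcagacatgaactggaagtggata
Over these 90 bases Klrb1b differed from Klrb1c at 5 positions and Klrb1a at 2. The longest run shared with either was 32 bases, so that a 50-base read within the stretch holds at least 1 base that differs. The 107 and 74 shared 50-base reads lie outside it, so other parts of the transcripts are identical over 50 bases. Klrb1b itself, an inhibitory receptor for Clec2d, had 32, 61 and 15 counts in WT against 14, 7 and 38 in KO. Klrb1a had a single count in total, in KO replicate 1. None of the 50-base stretches of Ncr1, Klrd1, Gzma, Gzmb, Nkg7, Prf1 and Tbx21 was shared, and Klre1 and Eomes shared under 1% (0.28% and 0.386%).

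The granule genes held most of the signal. Gzma, a trypsin-like granzyme on chr13:113093825-113100979 (minus strand), had 25, 33 and 12 counts in WT against 31, 21 and 34 in KO. In CPM this was 0.612, 0.969 and 0.562 in WT (mean 0.714 ± 0.222, SD, n = 3) and 1.33, 0.772 and 1.17 in KO (1.09 ± 0.288). KO replicate 2 lay below WT replicate 2, so the groups overlapped. Gzma was fitted 0.60 higher in KO on the log2 scale (SE 0.42), with a 95% interval from 0.772-fold to 2.97-fold and an adjusted p of 0.629 (edgeR's quasi-likelihood test, Benjamini-Hochberg over 14625 genes).

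Nkg7 encodes a membrane protein of cytotoxic granules and lies on chr7:43437073-43438249 (plus strand). Its counts were 6, 0 and 2 in WT against 16, 0 and 24 in KO. In total 8 counts fell in the WT libraries and 40 in the KO libraries, all of the latter in KO replicates 1 and 3, while KO replicate 2 had none. Nkg7 did not pass the filter on low counts. In a fit over all 26138 genes with a count its log2 fold change was 2.57 (SE 1.19, 95% interval 0.13 to 5.02), with an unadjusted p of 0.0399 and an adjusted p of 0.522 in edgeR and an adjusted p of 0.553 in DESeq2. With each library left out, the same fit gave 1.93 to 3.53. The adjusted p was lowest without KO replicate 2 (0.145, log2 fold change 3.16) and highest without KO replicate 3 (0.827, 2.01).

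Gzmb, the granzyme that activates caspases, on chr14:56258856-56262260 (minus strand), had 6, 0 and 4 counts in WT against 8, 0 and 6 in KO. Perforin (Prf1, chr10:61297836-61304263, plus strand), the protein that opens the target membrane, had 3, 4 and 3 counts in WT against 2, 2 and 10 in KO. For both genes the values of the genotypes overlapped, and KO replicate 3 alone brought Prf1 to 10 counts.

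Both T-box factors were at the limit of detection. Tbx21, on chr11:97098071-97115331 (minus strand), had 4, 6 and 0 counts in WT against 3, 1 and 5 in KO. Eomes, on chr9:118478212-118486132 (plus strand), had 1, 0 and 5 counts in WT against 5, 0 and 0 in KO. Neither gene reached 10 counts in any library, and a difference between the genotypes was not detectable at this depth.

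Since 2 of the genes are T-box factors, the RefSeq promoters (GRCm38.p6, 250 bases before and 50 after the start) were searched on both strands. The letters GGTGTGA, a T-box site, occurred in Nkg7, 13 bases before its RefSeq start, and in no other of the 9 genes matched, against 4.6% of 27025 genes. AGGTGTG, which overlaps it by all but 1 letter, likewise occurred in Nkg7 alone, against 6.72% of all genes. GTGTGA, which GGTGTGA contains, occurred in Ncr1, Klre1, Gzmb and Nkg7, against 16.4% of all genes. TGTGGT, read as ACCACA on the other strand and a site of the RUNX factors that act in cytotoxic lymphocytes, occurred in 7 of the 9, all but Eomes and Tbx21, against 18.9% of all genes. The letters GTCACGTGA of clock factors occurred in none of the 9, against 0.895% of all genes. Klrd1 was not matched. The promoter of Gzma, the gene with the most counts, is shown with its ACCACA in capitals, 50 bases before the start (chr13:113100982-113101231, minus strand, 5′ to 3′).
Gzma: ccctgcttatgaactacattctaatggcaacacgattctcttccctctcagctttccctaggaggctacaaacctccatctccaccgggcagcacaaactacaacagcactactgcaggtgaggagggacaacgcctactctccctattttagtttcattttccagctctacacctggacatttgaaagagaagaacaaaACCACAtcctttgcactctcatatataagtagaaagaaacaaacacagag
These matches describe letters in the reference and carry no measurement of binding.

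The comparison of KO with WT asks which genes of the EC preparation changed with the loss of leene under AngII. Gzma and Klrd1 passed the filter on low counts, and the other 8 genes did not. Of the 2 tested, 0 were called higher and 0 lower at an adjusted p under 0.05 in edgeR, and 0 had an unadjusted p under 0.05. Over all 14625 genes tested, 0.0342% were called higher in KO and 0.0752% lower, and 10.3% had an unadjusted p under 0.05. DESeq2, which called 1.21% of 15470 genes in either direction, also called 0 of the 10, with 0 at an unadjusted p under 0.05. It gave an adjusted p for Gzma (0.772), Klrd1 (0.944) and Nkg7 only and left out the other 7 for their low counts. Klrd1 was fitted 0.40 higher in KO on the log2 scale (SE 0.91), with a 95% interval from 0.305-fold to 5.72-fold and an adjusted p of 0.886 in edgeR. The interval of Gzma leaves room for a rise of nearly 3-fold and that of Klrd1 for more than 5-fold, so that these data limit a change of either gene only loosely.

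In the fit without the filter, the log2 fold changes of the other 7 genes ran from -0.85 for Klre1 (SE 1.44) to 0.81 for Ncr1 (SE 1.19), with adjusted p from 0.816 to 0.983 in edgeR. Klrb1c (0.35), Gzmb (0.72), Prf1 (0.63), Tbx21 (0.23) and Eomes (-0.20) lay between them. Fitted values were above 0 in KO for 8 of the 10 genes. The median over the 10 was 0.50, beside 0.06 over all 26138 genes, and the median of the 2 tested genes was also 0.50, beside 0.03 over the 14625. Groups that did not overlap in CPM occurred in 0 of the 2 tested NK genes and in 17.8% of all 14625 genes tested. They also occurred in 0 of the 8 NK genes under the filter, which the 17.8% does not cover. The exact permutation test over the 20 ways to assign the libraries to groups (two-sided) gave p from 0.2 for Gzma and 0.3 for Nkg7 and Ncr1 to 0.9 for Eomes, where 0.1 is the smallest p that 3 against 3 libraries allow.

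**Figure D3:**
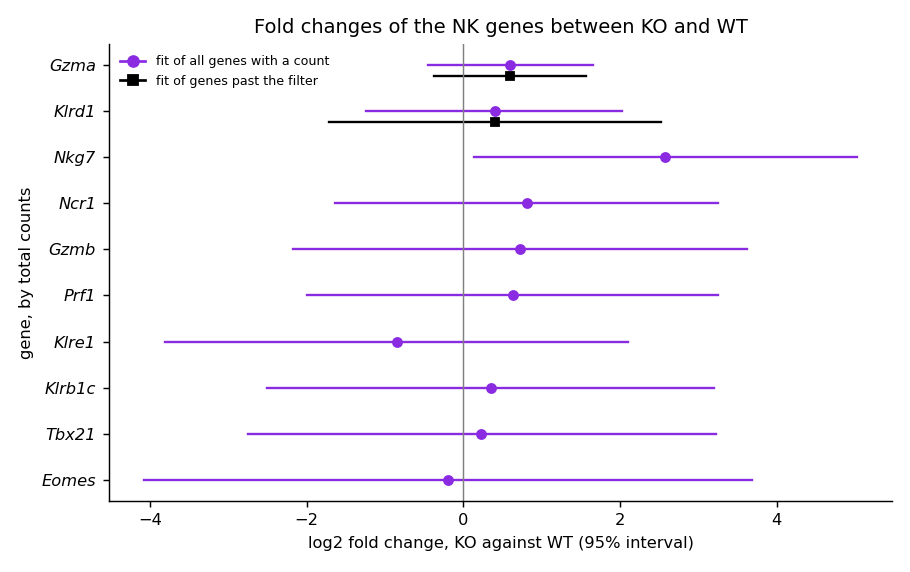
Log2 fold change of KO against WT (x axis) with its 95% interval for the 10 NK genes (y axis, ordered by total counts), from the fit of all genes with a count (purple circles) and, for Gzma and Klrd1, from the fit of genes past the filter (black squares). The intervals of 9 genes span 0, and that of Nkg7 runs from 0.13 to 5.02 before adjustment for multiple tests.

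The wider families of NK genes were next compared, by lists of related genes. Of 31 other NK receptor and surface genes, 13 passed the filter. Of these, 12 had fitted values above 0 in KO, 0 were called in edgeR, and 2 had an unadjusted p under 0.05. Their median log2 fold change was 0.71. The leading 3 by level are also made by other cells of the lung. The collagen receptor Itga1, abundant in ECs, stood at 75.5 ± 32.6 CPM in WT and 100 ± 26.1 in KO (adjusted p = 0.679). The leukocyte integrin Itgal (LFA-1) stood at 11.8 ± 4.75 CPM in WT and 28.8 ± 3.96 in KO, with every KO library above every WT library (log2 fold change 1.29, adjusted p = 0.265 in edgeR and 0.00948 in DESeq2). Fcgr3 (CD16), at 10 ± 3.15 and 10.4 ± 1.81 CPM, had an adjusted p of 0.946. Besides Itgal, DESeq2 called Spn (CD43), named here after its values were seen, a sialoglycoprotein of leukocytes at 2.96 ± 0.849 CPM in WT and 10.6 ± 2.75 in KO (adjusted p = 0.0954 in edgeR and 6.1e-06 in DESeq2).

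The receptors that mark NK cells more narrowly were scarce. The Ly49 genes (the Klra genes of this list) had at most 8 counts in a library, and Klra5 and Klra6 had 0 in all 6. Total counts in WT and KO were 4 and 17 for Klra9, 1 and 9 for Klra7, and 1 and 8 for Klra1. They were 1 and 7 for Klra4 and 2 and 4 for Klra3. Klra8 (13 and 7) and Klra10 (1 and 0) went the other way. None of the Ly49 genes passed the filter, so these differences were not tested in the main fit. The activating receptor Klrk1 (NKG2D) had 2, 18 and 7 counts in WT against 18, 5 and 17 in KO, with an adjusted p of 0.748. The partners of Klre1, Klri1 and Klri2, totalled 36 and 33 counts over all libraries. In the NK gene complex of chromosome 6, taken here as 128609227 to 130386874, 52 of 91 genes had a count, 17 passed the filter and 0 were called in edgeR. It held 27 Klr genes and pseudogenes, of which Klrb1b, Klrd1 and Klrk1 passed the filter and 6 had no count. The 6 were Klrb1, Klrc3, Klra5, Klra6 and the pseudogenes Klrb1-ps1 and Klra11-ps. The largest counts in the complex fell on Clec2d, Gabarapl1 and Clec1a, which other cell types use.

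Among the adaptors and kinases through which these receptors signal, the 3 with the highest level are also used by myeloid cells. Tyrobp (DAP12) stood at 25.8 ± 7.95 CPM in WT and 23.8 ± 7.66 in KO (log2 fold change -0.12, adjusted p = 0.897). Syk, a kinase that DAP12 recruits, stood at 20.1 ± 0.371 and 15.9 ± 4.21 CPM (adjusted p = 0.572), and the Fc receptor chain Fcer1g at 13.8 ± 4.86 and 15.2 ± 4.36 CPM (adjusted p = 0.872). Of the 10 adaptor and signalling genes tested among 13, 4 had fitted values above 0, with a median of -0.07. In edgeR 0 were called, with 1 at an unadjusted p under 0.05, and DESeq2 called 0.

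The genes of granule loading and release gave a median of 0.01 over 13 tested of 21, with 0 called by edgeR or DESeq2 and 3 at an unadjusted p under 0.05 (1 higher and 2 lower in KO). Ctsc, the protease that activates granzymes, stood at 383 ± 319 CPM in WT and 698 ± 45.7 in KO (adjusted p = 0.609). Lamp1 of lysosomal membranes, which appears on the surface of a degranulating cell, stood at 429 ± 213 and 595 ± 60.4 CPM (adjusted p = 0.643), and the death ligand Tnfsf10 (TRAIL) at 66.2 ± 18.6 and 107 ± 22.7 CPM (adjusted p = 0.418). The 3 are expressed well beyond lymphocytes. Of the other granzymes, Gzmm had 13 to 23 counts in each library and passed the filter, and Gzmd, Gzme, Gzmf, Gzmg and Gzmn had 0 counts in every library.

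Of 19 genes for cytokines, their receptors and homing, 14 were tested, 12 with fitted values above 0 and a median of 0.45. In edgeR 0 were called, with 1 at an unadjusted p under 0.05, and DESeq2 called 0. S1pr1, a receptor for lymphocyte egress that ECs also express, stood at 144 ± 29.9 CPM in WT and 106 ± 25.9 in KO (adjusted p = 0.551). The interleukin receptor chains Il18r1 (adjusted p = 0.754) and Il2rg (adjusted p = 0.758) were not called either. Interferon gamma (Ifng), the cytokine by which NK cells activate macrophages, had 0, 0 and 1 counts in WT against 2, 0 and 2 in KO.

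The lymphocyte transcription factors gave a median of 0.09 over 11 tested of 14, with 0 called in edgeR and 3 at an unadjusted p under 0.05. Ets1 stood at 332 ± 65.4 CPM in WT and 331 ± 48.7 in KO, and Zeb2 at 168 ± 26.2 and 141 ± 22.3 CPM, both with an adjusted p above 0.6 (0.996 and 0.639). Id2, which innate lymphoid cells require, stood at 30.5 ± 3.25 and 38.6 ± 3.54 CPM, with an adjusted p of 0.468. Its lowest KO library (34.6 CPM) lay just above its highest WT library (34.1 CPM). Groups that did not overlap occurred in 17.8% of all genes tested. DESeq2 called 1 of the list, Nfil3, named here after its values were seen. This factor of NK cell development, which is also under clock control in many cells, stood at 5.45 ± 2.17 CPM in WT and 2.01 ± 0.592 in KO (log2 fold change -1.45, adjusted p = 0.283 in edgeR and 0.0165 in DESeq2).

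Ligands that NK receptors read on other cells, together with IL-15 and IL-18, gave a median of 0.63 over 13 tested of 16, with 10 above 0, 0 called by edgeR or DESeq2 and 1 at an unadjusted p under 0.05. The class I MHC genes H2-K1 and H2-D1, which restrain NK cells, stood at 758 ± 479 and 605 ± 331 CPM in WT and at 1170 ± 97.7 and 878 ± 86.3 CPM in KO (adjusted p = 0.640 and 0.647). Clec2d, the ligand of Klrb1b, stood at 124 ± 46.8 and 120 ± 19.8 CPM (adjusted p = 0.953).

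Markers of T and B cells were read in the same libraries. The 16 T cell markers summed to 5.61 to 9.25 CPM in WT and 10.7 to 19.1 in KO, with 0 of the 13 tested called by edgeR or DESeq2, 5 at an unadjusted p under 0.05 (10.3% over all genes) and a median of 1.01. Cd3d, a chain of the T cell receptor complex, stood at 0.566 ± 0.227 CPM in WT and 1.22 ± 0.233 in KO (adjusted p = 0.465). The 12 B cell markers summed to 16 to 32.6 CPM in WT and 105 to 114 in KO, with a median of 2.24. All 12 were tested, and Cd79a, Ms4a1 and Fcrla were called higher in KO by edgeR and 8 of the list by DESeq2. The 8 pan-leukocyte markers summed to 187 to 285 CPM in WT and 270 to 368 in KO, with 0 called in edgeR (2 at an unadjusted p under 0.05), 1 in DESeq2 and a median of 0.21. No T or B cell marker was at 0 in all libraries. In bulk RNA, fewer cells of a type and less RNA per cell cannot be told apart.

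**Figure D4:**
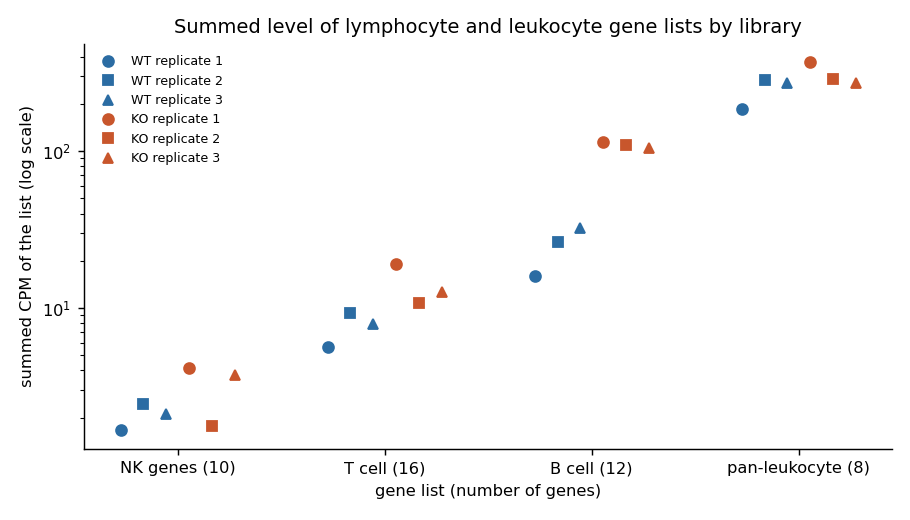
Summed CPM of each gene list (y axis, log scale) in each of the 3 WT (blue) and 3 KO (orange) libraries, with the marker shape giving the replicate number. The NK genes run from 1.66 to 4.17 CPM, with KO replicate 2 among the WT libraries on this TMM scale, whereas the B cell markers lie at 105 to 114 CPM in KO and at 16 to 32.6 CPM in WT.

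The NK genes were also taken in proportion to these lists. For every 100 counts on the B cell markers, the 10 genes had 10.4, 9.3 and 6.46 in WT and 3.66, 1.6 and 3.54 in KO, lower in each KO library than in any WT library. The B cell sums in this share were themselves 16 to 32.6 CPM in WT and 105 to 114 in KO. The sums of the 10 NK genes were 1.66 to 2.44 CPM in WT and 1.77 to 4.17 in KO, so the lower share is not a lower NK level. For every 100 counts on the T cell markers they had 29.7, 26.3 and 26.6 in WT and 21.8, 16.4 and 29.5 in KO, and here the groups overlapped. For every 100 pan-leukocyte counts they had 0.89, 0.856 and 0.782 in WT and 1.13, 0.609 and 1.38 in KO, again overlapping. None of these shares was tested.

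Gzma, with the most counts, was also set against 4 leukocyte genes, chosen after their values were seen, by ratios that do not depend on library scaling. Per count of Gzma there were 2.36, 2.55 and 6.25 counts of Cd79a in WT and 12, 15.7 and 12 in KO. Ptprc (CD45), the common antigen of leukocytes, had 12.7, 22.5 and 31.2 counts per count of Gzma in WT and 40.0, 52.3 and 40.4 in KO. Tyrobp went the other way, with 28.8, 34.6 and 46.5 in WT and 24.5, 26.3 and 15.8 in KO. For Cd3e the groups overlapped, with 0.28, 0.576 and 0.917 counts per count of Gzma in WT and 1.48, 1.43 and 0.912 in KO. Since the genes were chosen on these values, the ratios are a description with no test.

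The remaining marker lists are given for the makeup of the libraries, and their part in the values of the NK genes was not tested. Of the EC markers, 0 of 12 were called in edgeR (1 at an unadjusted p under 0.05; median 0.14), and of the alveolar type II markers 0 of 7 (0 at an unadjusted p under 0.05; median 0.80). Their sums ran from 1930 to 3610 CPM in WT and 2330 to 3730 in KO for ECs, and from 5240 to 49000 and 38600 to 47400 CPM for alveolar type II cells. The monocyte and macrophage list had a median of 0.36, the neutrophil list 0.29, the erythroid and platelet list 0.25 and the list of type 2 innate lymphoid cells and basophils -0.04. In those 4 lists edgeR called 0 genes, with 1, 2, 4 and 2 at an unadjusted p under 0.05, and DESeq2 called 1, Il9r of the last. Of 10 genes induced by tissue dissociation, edgeR called Hsph1 and Hspa1b lower in KO and DESeq2 called 5 lower, with a median of -0.77.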

How the data were processed

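Libraries were stranded polyA mRNA-seq of 3 WT and 3 KO preparations, read as single 50-base reads. The authors deposited raw counts per gene. Per the labels and file headers, reads were demultiplexed with bcl2fastq 2.18, aligned with STAR 2.5.4b to mm10 (GRCm38) and counted by featureCounts (Subread 2.0.0) over exons of the Ensembl annotation, in the reverse orientation of the stranded kit and for uniquely aligned reads. Reads on exons of more than 1 gene, or aligned to more than 1 place, were not assigned. No molecular identifiers were used, so floors cover counting error only.

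Symbols came from GENCODE's annotation of the same build (47224 of 47729 genes). Counts were tested in R 4.3.3 with edgeR 4.0.16 (filterByExpr, TMM, glmQLFit and glmQLFTest, genotype as the only term, Benjamini-Hochberg over 14625 genes, adjusted p under 0.05), without other covariates. CPM used TMM-scaled library sizes, and log2 CPM a prior count of 2. Replicate numbers were checked for pairing by the correlation of deviations from group means, which was -0.0814, 0.219 and 0.0111 for replicates 1, 2 and 3, so they were treated as names. Alternatives were DESeq2 1.42.0 (the tool of the study), limma-voom (limma 3.58.1), other scalings, filters and dispersions, the replicate block and each library left out. The pipeline was tested on simulated data.

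The genes and lists were chosen with earlier results of these data known. The text names all 10 genes, the genes of each list called by edgeR, the 3 of highest mean CPM in lists of NK genes and the first marker of the other lists where given, and the 5 genes closest in profile. Other genes named are background, or were chosen after their values were seen.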

Additional observations from a re-analysis of the deposited data

How the results depend on the processing

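The number of NK genes called was 0 under every alternative run. In the main test, 1 gene (Nkg7) had an unadjusted p under 0.05 without a filter, and likewise with the filter but without KO replicate 2. When the other alternatives were also run without the filter, several gave Nkg7 an unadjusted p under 0.05. It ran from 0.00291 (edgeR without KO replicate 2) to 0.291 (limma-voom). The fitted direction of Gzma (0.42 to 0.84) and Nkg7 (1.93 to 3.53) held with each library left out, as did Ncr1 (0.18 to 2.42). That of 7 genes turned. Klrd1 fell to -0.10 without WT replicate 1 and -0.15 without KO replicate 1 (range -0.15 to 0.91), Klrb1c to -0.26 and -0.54 without WT replicate 1 and KO replicate 2 (-0.54 to 1.81), and Tbx21 to -0.28 and -0.21 without replicate 3 of WT or KO (-0.28 to 0.92). Gzmb reached -0.06 without KO replicate 1 (-0.06 to 1.3) and Prf1 -0.44 without KO replicate 3 (-0.44 to 0.98). Klre1 reached 0.06 without WT replicate 2 (-2.78 to 0.06), and Eomes 2.07 without WT replicate 3 and 0.39 without KO replicate 2 or 3 (-4.35 to 2.07). Each of these fits rests on 5 libraries. No other alternative turned a direction. The median of the 2 or 3 NK genes past the filter ran from 0.13 to 0.91 with each library left out. Total-count scaling moved the median of all genes to -0.13 and totals of nuclear genes to -0.18, from 0.03, with the median of the 2 tested NK genes at 0.40 and 0.35.

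Over all genes, 16 were called (5 higher and 11 lower), against 187 in DESeq2 (88 and 99), 26 in limma-voom, 211 in the likelihood ratio test, 26 with RLE, 31 with upper-quartile, 123 with total-count and 114 with nuclear-total scaling, 152 without a filter (87 and 65) and 0 to 791 with a library left out. The count was 0 without each KO library (992, 986 and 1112 at an unadjusted p under 0.05) and 791 (660 and 131) without WT replicate 2. The cause was not tested. With the replicate number as a block, 0 genes were called (1776 at an unadjusted p under 0.05), and Gzma stood at 0.61 and Klrd1 at 0.24. The numbers did not pair all the libraries. WT replicate 1 correlated best with KO replicate 3 (0.192), WT replicate 3 with KO replicate 1 (0.194) and WT replicate 2 with KO replicate 2 (0.219). A pairing in that order was not fitted. At this depth 2 of the 10 NK genes passed the filter with all 6 libraries, and 2 or 3 with a library left out.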

Other observations

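Gzmb, Nkg7 and Eomes had 0 counts in both libraries numbered 2, against 24, 48 and 11 counts in the other 4 libraries. Klrb1c and Klre1 went the other way, with 17 of 23 and 17 of 24 counts in the libraries numbered 2. The pattern was noticed after the values were seen and was not tested, and nothing in the labels ties libraries of the same number together. Over the tested genes, the libraries numbered 2 had the highest correlation of deviations from group means of any WT and KO library (0.219).

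The NK genes differed in how far their counts varied among libraries of the same genotype, and genes at this level vary by more than counting noise in general. The chi-square of the counts was taken within each genotype, given the library sizes, and divided by its degrees of freedom. It was 1.57 for Tbx21, 2.02 for Prf1 and 2.06 for Gzma, and 6.31 for Eomes, 6.54 for Nkg7 and 8.75 for Klrd1. The median was 3.04 over the 5371 genes with 11 to 156 counts in all. Ccl4, a chemokine of activated NK cells and macrophages, had 151 of its 166 counts in WT replicate 2, and Ccl3 104 of 132.

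The mean profile of Gzma and Klrd1 over the 6 libraries was set against 12755 tested genes with a mean of at least 1 CPM. Genes on any of the lists above were left out beforehand, so no listed NK, T cell or leukocyte gene could appear. The closest were Pcdhb9 (root mean square difference 0.188 on the log2 scale), Pcdhgb1 (0.22), Siglech (0.233), P2ry14 (0.273) and Scube1 (0.282). With 6 libraries and so many candidates, likeness of this size is a description only.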
